A study of Drosophila melanogaster with 8 samples.

Results

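The genes described here are 10 regulators and effectors of somatic muscle formation in Drosophila melanogaster: the transcription factor genes twi, Mef2, nau and lmd, the cell adhesion receptor genes kirre, sns and hbs, and the genes rols, mbc and blow, which act inside cells during myoblast fusion. They were chosen by gene symbol. All 10 were found among the 15182 fly genes of the deposited gene table, with 30 isoforms among the 25406 of the isoform table. RNA was sequenced from cells of E10::EGFP embryos, which carry EGFP under E10, an enhancer of ovo (shavenbaby), the gene that directs the formation of larval cuticle hairs. Embryos from 1 h egg collections were dissociated at early stage 14, after some 11 h of development at 25 °C. In each of 4 independent sorts, EGFP-positive cells (GFP-positive below) and 50000 cells of the parent scatter gate (all cells below) were collected from the same transgenic embryos. Wild type embryos served to set the gate and gave no library. The all-cell libraries therefore also hold EGFP-positive cells, although the series' design text calls them GFP-negative. The number of embryos behind a library is not given in the labels, and each group has 4 libraries.

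Somatic muscles of the fly embryo are syncytia. A founder cell, which carries the identity of one muscle, fuses with fusion-competent myoblasts that it attracts. The immunoglobulin receptors Kirre (Dumbfounded) and Roughest on founder cells bind Sticks and stones (Sns) and Hibris (Hbs) on fusion-competent cells. Adaptors and regulators of actin then remodel the contact and open the fusion pore. Twist sets up the mesoderm, Mef2 drives muscle differentiation, Nautilus (Nau), the fly relative of MyoD, acts in a subset of founders, and Lame duck (Lmd) specifies the fusion-competent cells.

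The fly FPKM (fragments scaled by transcript length and by the fragments mapped in the library) summed to between 459696 and 505783 in the GFP-positive libraries and between 485560 and 542636 in the all-cell libraries. The size of the FPKM steps in short intronless genes gave an estimate of depth, about 7150000 to 10100000 fragments in GFP-positive libraries and 9990000 to 12100000 fragments in all-cell libraries. By it 3 fragments on a 1 kb transcript were worth 0.298 to 0.420 FPKM in GFP-positive libraries and 0.247 to 0.300 FPKM in all-cell libraries, counting error only. All 12 epidermis and trichome markers were higher in GFP-positive cells, with a summed level of 4139.6 to 5725 FPKM against 469 to 1024 FPKM in all cells. Of all genes tested 11.6% were higher. After scaling by spike-ins of ERCC subgroup B, described below, 10 of the 12 were called higher, against 3.17% of all genes.

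Of the 10 genes, 7 were lower in GFP-positive cells and 0 were higher (limma, Benjamini-Hochberg adjusted p under 0.05), while kirre, hbs and rols did not pass the test. The same calls were made for 38.7% (lower) and 11.6% (higher) of the 10943 genes in the fit. The same 7 genes lay lower in every GFP-positive library than in any all-cell library, a pattern seen in 34.8% of the genes tested, and 0 of the 10 showed the opposite, against 10.2% of the genes tested. The median log2 fold change of the 10 was -1.19, against -0.47 over all genes tested. In bulk samples of this kind fewer muscle cells and less RNA per cell cannot be told apart. All 10 passed the filter, which asked for 1 FPKM in 4 or more libraries. For twi this was through the all-cell libraries alone, so that this gene had to differ between the groups.

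**Figure D1:**
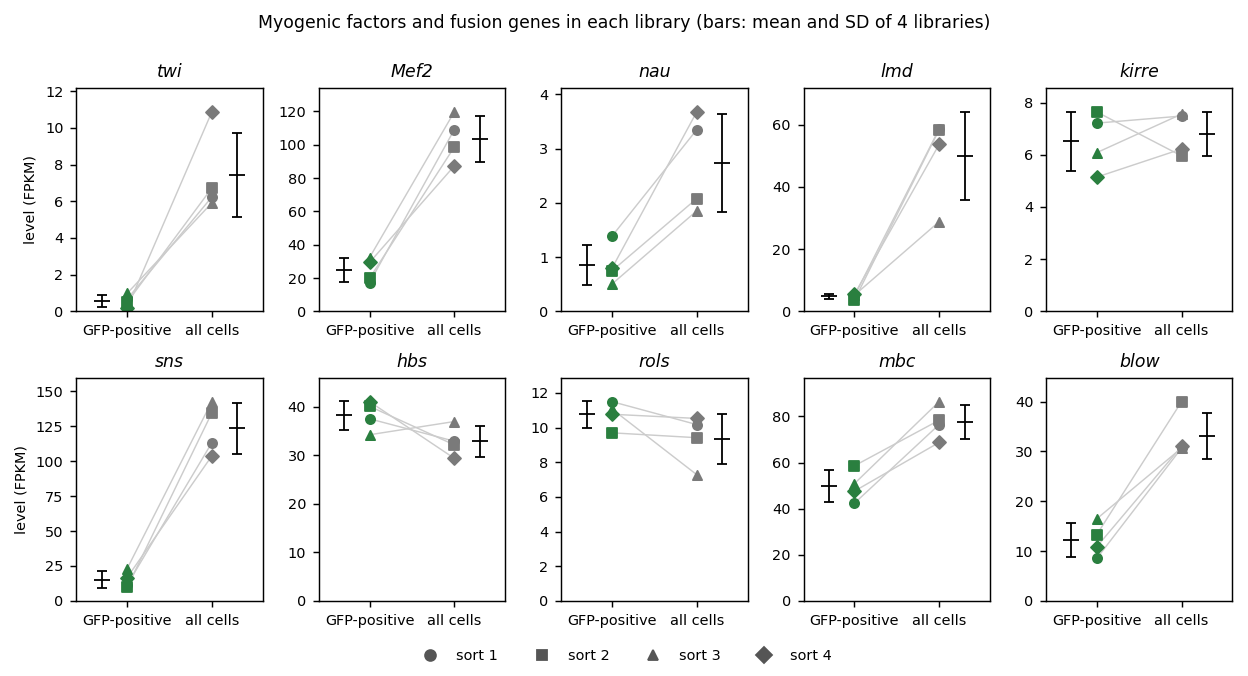
Level in FPKM of each of the 10 genes in the GFP-positive (left, green) and all-cell (right, grey) libraries; marker shape gives the sort, grey lines join the libraries of a sort, and bars show the mean and SD of 4 libraries. lmd, sns, twi, Mef2, blow, nau and mbc are lower in every GFP-positive library than in any all-cell library, while the groups of kirre, hbs and rols overlap.

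Among the transcription factors, lmd had the largest log2 fold change, while the ratio of group means was largest for twi. lmd (CG4677, chromosome 3R, 18846944 to 18852435 on dm3) encodes the Gli-family zinc finger protein of fusion-competent myoblasts. It stood at 4.96, 3.57, 5.18 and 5.43 FPKM in the GFP-positive libraries of sorts 1 to 4, against 58.6, 58.4, 28.8 and 53.7 FPKM in the all-cell libraries. The groups were far apart in every sort, and the all-cell library of sort 3 was the lowest of its group. The mean of 4.78 ± 0.832 FPKM in GFP-positive cells was 10.4-fold lower than the 49.9 ± 14.2 FPKM in all cells (SD, n = 4 each). On the log2(FPKM + 1) scale the fold change was -3.10 (limma adjusted p = 1.6e-05, SE 0.24), which lay 2.63 log2 units below the median of all genes. In that all-cell library the summed level of 18 sarcomere genes was also the lowest of its group, at 3443 FPKM, while the other 3 held 4507 to 5228 FPKM. The values of twi, nau and rols were lowest there too. Those of Mef2, sns, hbs, kirre and mbc were instead the highest of their group there, with sns at 142 FPKM and Mef2 at 119.7 FPKM. What set the value of lmd in this library was not tested.

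Mef2 (CG1429, chromosome 2R, 5801001 to 5846313) encodes the MADS box factor that activates muscle structural genes. It stood at 17.2, 19.8, 32.2 and 29.3 FPKM in the GFP-positive libraries, against 109, 98.6, 119.7 and 87.3 FPKM in the all-cell libraries of sorts 1 to 4. The GFP-positive libraries of sorts 3 and 4 were the highest of their group and still lay below every all-cell library. On average GFP-positive cells held 24.6 ± 7.28 FPKM, 23.8% of the 103.6 ± 13.9 FPKM in all cells (SD, n = 4 each), a log2 fold change of -2.06 (limma adjusted p = 3.2e-05, SE 0.20).

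twi and nau were the least abundant of the 10 in GFP-positive cells. twi (CG2956, chromosome 2R, 18933631 to 18935849), a bHLH gene, had 0.661, 0.486, 0.974 and 0.177 FPKM in GFP-positive libraries, against 6.23, 6.72, 5.91 and 10.9 FPKM in all-cell libraries. The lowest of these values, in the GFP-positive library of sort 4, rested on about 2.66 fragments, by the step estimate and an annotated transcript of 2097 bases. The fall of twi by 2.41 log2 units (limma adjusted p = 7.9e-05, SE 0.29) is on a scale that understates changes of low genes. Means were 0.575 ± 0.333 FPKM in GFP-positive cells and 7.43 ± 2.31 FPKM in all cells (SD, n = 4 each), 12.9-fold lower in GFP-positive cells.

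nau (CG10250, chromosome 3R, 19538536 to 19544079), also a bHLH gene, had 1.38, 0.745, 0.502 and 0.793 FPKM in GFP-positive libraries, against 3.35, 2.08, 1.85 and 3.67 FPKM in all-cell libraries. The values were low in both groups, at about 7.72 to 15.4 fragments in GFP-positive libraries and 32.6 to 58.4 fragments in all-cell libraries on an annotated transcript of 1526 bases. The fall of nau (limma adjusted p = 0.0134, 95% interval -1.63 to -0.37) lay 0.53 log2 units below the median of all genes. The adjusted p was 0.0543 with TMM-like scaling of the libraries and 0.0520 and 0.0796 without sort 2 or sort 4. The locus of nau overlaps that of CG10300; whether their exons overlap was not examined.

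The receptors of the fusing cells differed from each other. sns (CG33141, chromosome 2R, 4686022 to 4743142), the main receptor of fusion-competent myoblasts, stood at 11.4, 9.72, 23.0 and 16.7 FPKM in GFP-positive libraries, against 113, 134, 142 and 104 FPKM in all-cell libraries. It was the most abundant of the 10 genes in all cells and the fourth in GFP-positive cells. GFP-positive cells averaged 15.2 ± 5.97 FPKM, 8.12-fold lower than the 123 ± 18.1 FPKM in all cells (SD, n = 4 each; log2 fold change -3.00, SE 0.24, limma adjusted p = 1.6e-05). Its locus overlaps that of CG30350. hbs (CG7449, chromosome 2R, 10898903 to 10928901), the paralog that shares ligands with sns, had 37.5, 40.1, 34.2 and 41.0 FPKM in GFP-positive libraries and 32.9, 32.1, 36.9 and 29.4 FPKM in all-cell libraries. The groups of hbs overlapped, and GFP-positive cells were higher in 3 of 4 sorts. The log2 fold change of 0.21 did not pass the test (95% interval -0.09 to 0.51, limma adjusted p = 0.214), and lay 0.68 log2 units above the median of all genes.

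The founder cell receptor gene kirre (CG3653, chromosome X, 2634417 to 3026824) was low in both groups, which overlapped. It had 7.22, 7.64, 6.09 and 5.15 FPKM in GFP-positive libraries and 7.49, 5.96, 7.56 and 6.22 FPKM in all-cell libraries. GFP-positive cells were lower in 3 of 4 sorts, and the log2 fold change of -0.06 had a 95% interval of -0.54 to 0.42 (limma adjusted p = 0.838). The locus spans 392408 bases, introns included, and overlaps those of 23 other rows of the table, rst among them; overlap of exons was not examined. rst (roughest), the paralog of kirre that acts beside it in founders and is named after its values were seen, stood at 48.8 ± 9.36 FPKM in GFP-positive cells and 72.8 ± 12.5 FPKM in all cells (SD, n = 4 each). rst changed by -0.57 log2 units (limma adjusted p = 0.0166), close to the median of all genes, and -0.02 with TMM-like scaling.

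Of the genes that act inside the fusing cells, blow and mbc fell and rols did not pass the test. blow (blown fuse, CG1363, chromosome 2R, 3467993 to 3474581) encodes a PH domain protein that acts in fusion-competent cells. It had 8.54, 13.3, 16.5 and 10.9 FPKM in GFP-positive libraries, against 30.7, 40.0, 30.7 and 31.0 FPKM in all-cell libraries. The groups did not overlap, and the log2 fold change was -1.38 (limma adjusted p = 3.1e-04, SE 0.21). Its locus overlaps that of Vps13.

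mbc (myoblast city, CG10379, chromosome 3R, 19607488 to 19627356) encodes a DOCK-family activator of Rac that is also used by migrating and spreading epithelia. It had 42.4, 58.6, 50.9 and 47.6 FPKM in GFP-positive libraries, against 76.5, 78.4, 86.4 and 68.7 FPKM in all-cell libraries. It was the most abundant of the 10 genes in GFP-positive cells. The groups did not overlap, and mbc fell by 0.63 log2 units (limma adjusted p = 0.00326, SE 0.14), 0.16 log2 units below the median of all genes. With TMM-like scaling the value was -0.08 (limma adjusted p = 0.798) and the call was lost.

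rols (rolling pebbles, CG32096, chromosome 3L, 12001315 to 12057959) encodes an adaptor that binds the tail of Kirre in founder cells. It had 11.5, 9.70, 11.1 and 10.8 FPKM in GFP-positive libraries and 10.2, 9.41, 7.28 and 10.5 FPKM in all-cell libraries. GFP-positive cells were higher in 4 of 4 sorts, but the groups overlapped and the log2 fold change of 0.19 did not pass the test (95% interval -0.23 to 0.62, limma adjusted p = 0.425). Its locus overlaps that of CG6793.

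The order of levels therefore changed between the groups. Between genes FPKM corrects for transcript length alone, and the RNA was amplified, so the order within a group is a description. In GFP-positive cells the order from high to low was mbc, hbs, Mef2, sns, blow, rols, kirre, lmd, nau and twi. In all cells it was sns, Mef2, mbc, lmd, blow, hbs, rols, twi, kirre and nau. Neighbours whose ranges over the 4 libraries overlapped were Mef2 and sns, sns and blow, blow and rols, kirre and lmd, and nau and twi in GFP-positive cells. In all cells they were sns and Mef2, lmd and blow, blow and hbs, rols and twi, and twi and kirre.

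**Figure D2:**
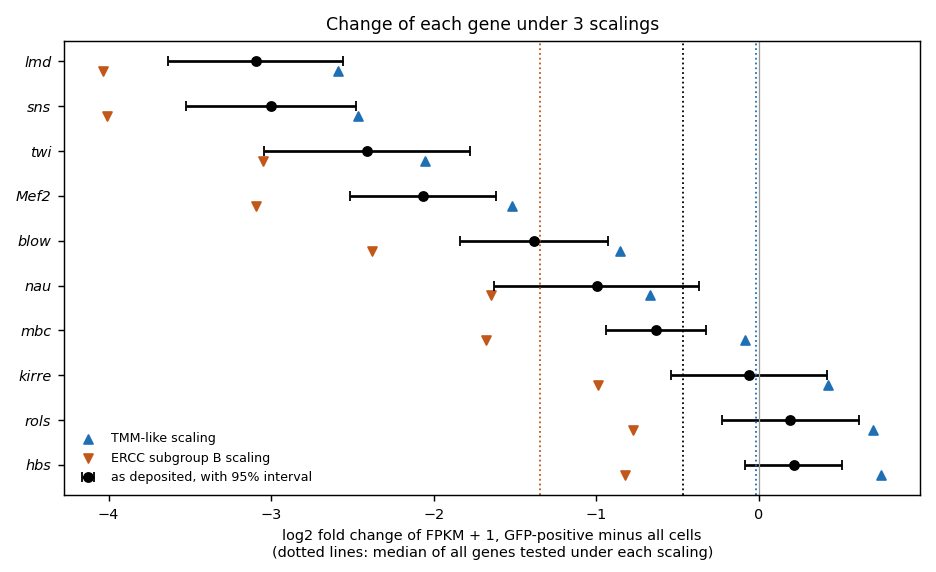
Log2 fold change of FPKM + 1, GFP-positive minus all cells, for each gene as deposited (black, with the 95% interval of the limma fit) and after 2 other scalings of the libraries (blue and orange); dotted lines mark the median of all genes tested in the same colours. lmd, sns, twi and Mef2 lie to the left of the median of all genes under each of the 3 scalings, and kirre, rols and hbs to the right of it.

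These calls depended in part on how libraries were scaled, since scaling moved the median of all genes: it was -0.02 with TMM-like scaling, -0.47 for the deposited values and -1.35 when libraries were scaled by spike-ins of ERCC subgroup B. With TMM-like scaling 5 of the 10 genes were lower (lmd, sns, twi, Mef2 and blow) and 2 higher, hbs at 0.75 (limma adjusted p = 0.00892) and rols at 0.70 (limma adjusted p = 0.00829). The shares of all genes called were then 18.8% lower and 21% higher. With ERCC subgroup B 7 were lower and 0 higher, against 64.8% and 3.17% of all genes, and hbs and rols stood at -0.82 and -0.78. The summed subgroup B spike-ins varied within groups, from 1489 to 4148 FPKM in all-cell libraries and from 4850 to 6831 FPKM in GFP-positive ones. Fold changes on that scale are less precise: the SE of Mef2 was 0.45, against 0.20 as deposited. Relative to the median of all genes, hbs, rols and kirre lay above 0 under each of these scalings.

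The authors' deposited table holds a Cuffdiff call for each sort, 1 library against 1. In it 5 of the 10 genes were called lower in sorts 1, 2 and 4 (twi, Mef2, lmd, sns and blow) and 4 in sort 3, where blow was not called (q = 0.255). None of the 10 was called higher in any sort in the authors' deposited table. The shares of all listed genes that this table calls lower were 10.6%, 9.81%, 6.63% and 9.08% in sorts 1 to 4, and those called higher 4.09%, 4.68%, 4.6% and 2.94%. By the authors' deposited table the log2 fold change of lmd was -3.56, -4.03, -2.48 and -3.31 in sorts 1 to 4.

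Ratios between genes within a library do not depend on how the libraries are scaled, apart from the pseudocount. The log2 ratio of sns to kirre, of the receptor of fusion-competent cells to that of founders, was 0.60, 0.31, 1.76 and 1.52 in the GFP-positive libraries of sorts 1 to 4, against 3.75, 4.28, 4.07 and 3.86 in the all-cell libraries. It was lower in GFP-positive cells in 4 of 4 sorts, by 2.94 log2 units on average. The log2 ratio of hbs to sns was between 0.55 and 1.94 in GFP-positive libraries and between -2.03 and -1.75 in all-cell libraries, a difference of 3.22. hbs was thus above sns in every GFP-positive library and below it in every all-cell library.

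Both differences had the smallest p that 4 against 4 libraries allow (exact two-sided permutation test, p = 0.0286). They did not pass after adjustment over the 6 ratios compared (adjusted p = 0.0857, exact permutation test). With only sns to kirre and hbs to sns at that smallest p, neither could pass this adjustment, whatever the size of its difference. The adjusted p therefore cannot weigh these differences. For the other 4 ratios the groups overlapped. The ratio of lmd to Mef2 was lower in 4 of 4 sorts by 1.03 log2 units (0.55 with a pseudocount of 5) and that of rst to kirre in 4 of 4 sorts by 0.51 (exact permutation p = 0.0571 and 0.0857, adjusted p = 0.0857 and 0.103). The ratio of nau to Mef2 differed by 1.07 (exact permutation p = 0.0571), or by 0.52 and 1.5 with pseudocounts of 0.1 and 5, and that of twi to Mef2 by -0.35 (exact permutation p = 0.429), or by -1.49 and 0.76 with pseudocounts of 0.1 and 5. Both nau and twi lie near or below the pseudocount of 1 in GFP-positive cells.

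**Figure D3:**
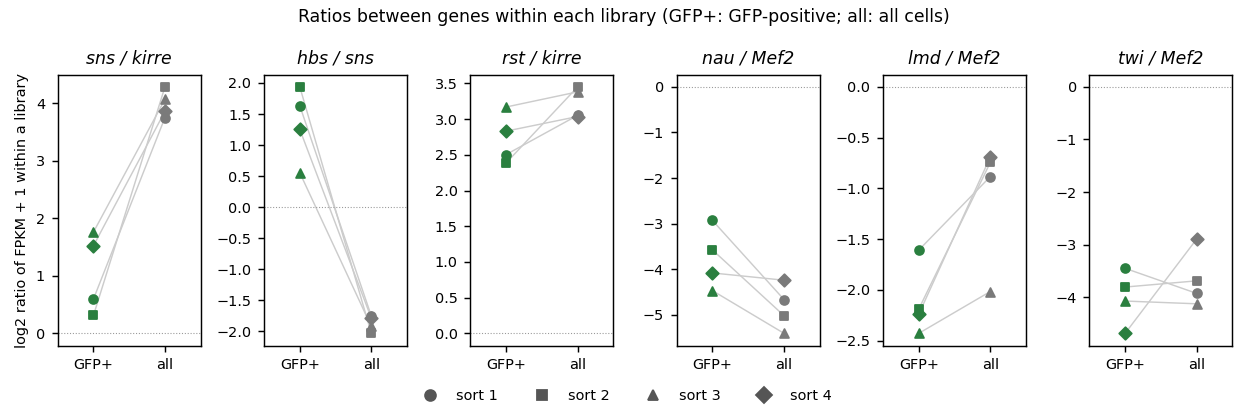
Log2 ratio of FPKM + 1 between pairs of genes within each library, for GFP-positive (left, green) and all-cell (right, grey) libraries; marker shape gives the sort and each panel has its own axis. The sns to kirre and hbs to sns ratios separate the groups completely, with hbs above sns only in the GFP-positive libraries.

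The isoform values showed where the remaining signal of each gene lay, with the limit that Cufflinks divides fragments between isoforms by estimate. Of the 30 isoforms, 21 passed the filter, of which 10 were lower and 0 higher in GFP-positive cells (limma, adjusted over all isoforms tested), against 27.2% and 9.28% of 16198 isoforms. The 10 were Mef2-RA, Mef2-RB, Mef2-RC, Mef2-RD, sns-RA, sns-RB, lmd-RB, twi-RB, blow-RA and mbc-RA. Of these, twi-RB and sns-RB passed the filter through the all-cell libraries alone and so had to differ. With TMM-like scaling 7 isoforms were lower and 1 higher (rols-RE), and Mef2-RB, Mef2-RD and mbc-RA were no longer called (limma adjusted p = 0.106, 0.186 and 0.417). The shares of all isoforms called with that scaling were not worked out, so these counts cannot be set against them. The 9 isoforms that were not tested included 2 of rols listed at 0 in all 8 libraries.

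Mef2 had 5 isoforms. Mef2-RA, the leading one in all cells, had 1.62, 3.45, 13.8 and 3.14 FPKM in the GFP-positive libraries of sorts 1 to 4 and between 37.7 and 53.5 FPKM in all-cell libraries. Mef2-RC averaged 0.955 ± 1.31 FPKM in GFP-positive cells and 20.2 ± 4.20 FPKM in all cells (SD, n = 4 each). Their log2 fold changes were -3.18 and -3.65 (SE 0.45 and 0.44, limma adjusted p = 8.3e-04 and 3.8e-04). Mef2-RF, whose locus of 45313 bases is the longest of the 5, averaged 6.99 ± 2.15 FPKM in GFP-positive cells and 11.4 ± 1.76 FPKM in all cells (SD, n = 4 each), and did not pass the test (log2 fold change -0.66, 95% interval -1.23 to -0.09, limma adjusted p = 0.0683). The share of Mef2-RA was 9.45%, 17.4%, 42.7% and 10.7% in GFP-positive libraries, against 43.3% to 45.2% in all-cell libraries. It was lower in 4 of 4 sorts (exact permutation p = 0.0286, adjusted p = 0.1 over the 7 genes compared), and the GFP-positive library of sort 3 stood apart from its group. That exact p is the smallest that 4 against 4 libraries allow. With only the shares of Mef2-RA and sns-RA at it, neither could pass this adjustment, whatever the size of its difference.

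**Figure D4:**
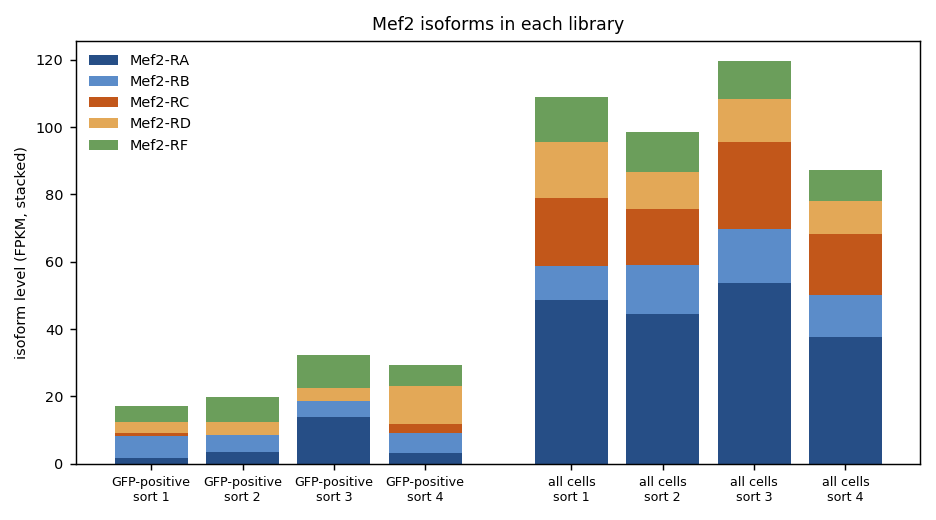
Stacked FPKM of the 5 Mef2 isoforms in each GFP-positive (left) and all-cell (right) library. Mef2-RA makes up 43.3% to 45.2% of the total in every all-cell library but 9.45% to 42.7% in the GFP-positive ones.

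Among the isoforms of the other genes, sns-RA and lmd-RB had the smallest adjusted p of the 21 (limma, 1.5e-04 each). sns-RA made up 100% of the sns signal in GFP-positive libraries 1, 2 and 4 and 98.2% in library 3, against 93.9% to 97.3% in all-cell libraries (exact permutation p = 0.0286, adjusted p = 0.1). This adjusted p had the same limit as that of the Mef2-RA share. sns-RB was listed at 0 in 3 of the GFP-positive libraries and stood at 3.09 to 8.63 FPKM in the all-cell libraries. For kirre, kirre-RC led with 58.6 ± 26.6% of the signal in GFP-positive cells and 73.3 ± 15.6% in all cells (SD, n = 4 each), and the isoforms that span nearly the whole locus, kirre-RB, kirre-RE and kirre-RF, stayed at or below 0.330 FPKM in GFP-positive cells and 0.379 FPKM in all cells. The shares of hbs-RA, rols-RD, mbc-RA and blow-RA differed by -3.77, -4.53, -16.3 and -8.89 percentage points, with exact permutation p from 0.229 to 0.714. Single libraries moved these differences: without the GFP-positive library of sort 4 mbc-RA stood at -6.60 and blow-RA at -5.11, and without that of sort 3 rols-RD stood at -1.03 and blow-RA at -13.5. rols-RE, at 4.43 ± 1.46 FPKM in GFP-positive cells and 2.57 ± 0.577 FPKM in all cells (SD, n = 4 each), had a log2 fold change of 0.58 that missed the threshold on the deposited values (limma adjusted p = 0.172).

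Other genes of muscle formation were examined as lists chosen from background knowledge. Of 21 other fusion genes, 14 fell and 0 rose, against 38.7% and 11.6% of all genes tested, but their median of -0.50 lay at the median of all genes. With TMM-like scaling 3 fell and 3 rose, shares no higher than the 18.8% and 21% of all genes. The 3 that fell under both were sing, which encodes a MARVEL domain protein needed for pore formation (log2 fold change -1.88), Vrp1, the WIP protein of fusion-competent cells (-1.65), and CadN, the N-cadherin gene that is also abundant in neurons (-1.46); their limma adjusted p-values as deposited were 0.0012, 5.8e-05 and 3.6e-04. dock, an SH2-SH3 adaptor, fell by 1.10 as deposited (limma adjusted p = 2.9e-04) and had an adjusted p of 0.0732 with TMM-like scaling. The 3 that rose with TMM-like scaling, named after their values were seen, were WASp (0.66), Rac2 (0.95) and Pak (0.67), all regulators of actin with roles in many cells.

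Of 15 transcription factors that give founders their identity, 8 fell and 2 rose, with a median of -1.05, where 38.7% of all genes tested were lower and 11.6% higher. With TMM-like scaling 6 fell and 2 rose, against 18.8% and 21% of all genes. kn (collier) averaged 3.05 ± 1.48 FPKM in GFP-positive cells and 23.5 ± 8.62 FPKM in all cells (SD, n = 4 each), and kn and Kr fell by 2.59 and 1.71 log2 units (limma adjusted p = 1.3e-04 and 0.0016). The ladybird genes lbl and lbe, which act in muscle and heart founders and also in epidermal cells, rose by 1.56 and 1.55 log2 units, lbl to 20.0 ± 7.73 FPKM in GFP-positive cells against 5.85 ± 1.01 FPKM in all cells (SD, n = 4 each; limma adjusted p = 7.6e-04 and 0.0012). With ERCC subgroup B they stood at 0.59 and 0.65 and were not called. Of 9 early mesoderm genes 5 fell and 0 rose, against the same 38.7% and 11.6%, and with TMM-like scaling 4 fell and 1 rose (how, named after its values were seen, at 0.51, limma adjusted p = 0.028). Those that fell on the deposited values included Him, sna, zfh1 and the FGF receptor gene htl with log2 fold changes of -2.90, -2.25, -2.06 and -1.93 (limma adjusted p = 0.0029, 0.00152, 7.8e-05 and 9.0e-05). In the all-cell libraries of sorts 1 to 4 sna stood at 42.6, 112, 131 and 60.0 FPKM. Him, zfh1 and htl had the same order, as had the summed neuron and glia genes at 592, 1042, 1186 and 717 FPKM. The part of neural cells in these falls was not tested.

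Of 18 sarcomere genes 15 fell and 0 rose, against 38.7% and 11.6% of all genes tested, with a median of -1.89. TpnC73F, Act57B, Mlc1 and Mlp60A fell, with log2 fold changes of -3.16, -2.72, -2.36 and -2.24 (limma adjusted p at most 4.5e-05). The list's summed level was 1285 to 1596 FPKM in GFP-positive libraries and 3443 to 5228 FPKM in all-cell libraries. With TMM-like scaling 13 fell and 2 rose, against 18.8% and 21% of all genes. Zasp52, Tm1 and Msp-300, named after their values were seen, did not pass the test as deposited.

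**Figure D5:**
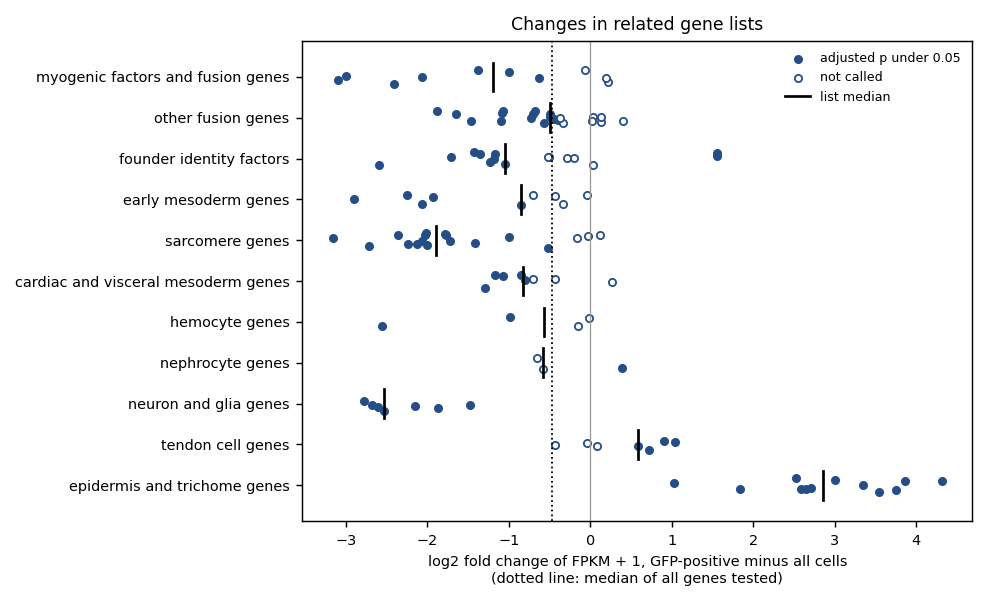
Log2 fold change of FPKM + 1, GFP-positive minus all cells, for each tested gene of 11 lists (filled: adjusted p under 0.05; open: not called; bar: list median; dotted line: median of all genes tested). The 10 myogenic and fusion genes spread from -3.10 to 0.21, with a median of -1.19, while the tendon cell and epidermis lists lie to the right of the median of all genes.

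Markers of other cell types moved with some of these values. The summed level of 7 neuron and glia genes was 90.6, 137, 289 and 188 FPKM in the GFP-positive libraries of sorts 1 to 4, against 592 to 1186 FPKM in the all-cell libraries. Of these genes 7 of 7 fell, where 38.7% of all genes tested were lower. Within the GFP-positive group the libraries of sorts 3 and 4, with the highest sums, were also the highest in sns, Mef2 and lmd. The other genes of the 10 did not follow this. twi was highest in sort 3 and lowest in sort 4, at 0.974 and 0.177 FPKM, and nau was lowest in sort 3, at 0.502 FPKM. The summed sarcomere genes were likewise highest in sort 3 and lowest in sort 4, at 1596 and 1285 FPKM. None of the 7 neuron and glia genes was at 0 throughout, and their part in the levels of sns, Mef2 and lmd was not tested. Without the GFP-positive library of sort 3 the log2 fold changes of sns, Mef2 and lmd were -3.21, -2.20 and -3.13.

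Tendon cells, the epidermal cells to which muscles attach, were marked by 7 genes. Of these 4 rose and 0 fell, against 11.6% and 38.7% of all genes tested. The others, tx, shot and how, named after their values were seen, stood at -0.43, 0.08 and -0.04 without a call. sr (stripe), the transcription factor of tendon cells, averaged 29.3 ± 10.1 FPKM in GFP-positive cells and 13.5 ± 4.22 FPKM in all cells (SD, n = 4 each). Tsp (thrombospondin), a matrix protein they secrete, averaged 61.9 ± 2.86 FPKM in GFP-positive cells and 38.7 ± 11.9 FPKM in all cells (SD, n = 4 each). Their log2 fold changes were 1.03 and 0.72, with slow at 0.90 and Lrt at 0.59 (limma adjusted p = 0.00899, 0.0127, 0.0138 and 0.0081). With ERCC subgroup B sr stood at 0.02 and slow, Tsp and Lrt between -0.11 and -0.43, so that for these 4 the direction held relative to all genes but not on that scale. Its spike-in sums varied between the libraries of a group, as given above. On that scale tx, shot and how were called lower, at -1.42, -0.97 and -1.10, as were 64.8% of all genes.

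The genes whose levels over the 8 libraries were most like that of Mef2 were otk, CG12391 and sqd, with Pearson's r of 0.995, 0.995 and 0.994 of log2(FPKM + 1), and for sns they were htl, otk and rgr, with 0.998, 0.997 and 0.997. These libraries share their group and depth, and 1692 and 1874 of 10933 genes had r above 0.9, so the order among them is a description.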

How the data were processed

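The values in the authors' gene and isoform tables are FPKM, as the file headers name them, with a column for each library and a mean and SD of the GFP-positive columns. Cuffdiff log2 fold changes, adjusted p-values (q-values) and calls per sort are also in the authors' tables; infinite ratios are written there as the largest number a computer holds. Per the submitters' processing notes TopHat 1.4.0, Cufflinks 1.3.0 and Cuffdiff 1.3.0 were used on dm3; how they were set and which annotation was used is not given in the sources used here. Counts were not used here. Per the labels' protocols 5 ng of RNA was amplified for each library. Coordinates are dm3, converted to 1-based. The design assumed RPKM, and the same test was used for FPKM.

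Fly genes with 1 FPKM or more in at least 4 of 8 libraries were tested on log2(FPKM + 1) by the trended, two-sided test of limma 3.58.1 (R 4.3.3), Benjamini-Hochberg adjusted over all genes (isoforms likewise), threshold 0.05. Spike-ins were removed from both tables before testing. The script was tested on simulated data. TMM-like scaling equalises the trimmed mean log ratio between libraries. Other alternatives were quantile, upper quartile and spike-in scaling, the pseudocount, the filter, array weights, summed isoforms, a sort block, and leaving out libraries or sorts. Ratios and isoform shares were compared by exact permutation. Depth was estimated from FPKM steps in 476 intronless genes. The labels name 1 spike-in mix for all libraries, yet of 42 spike-ins above 1 FPKM throughout, 12 were lower in GFP-positive libraries (log2 ratios -1.09 to -0.58) and 30 higher (1.00 to 2.34). Scaling therefore used subgroup B, taken from knowledge of the kit, equal in both mixes; 8 of these ratios were 1.00 to 1.27. The spread between libraries may be technical in part. The labels tie libraries to sorts, which pairs them: deviations from the group means correlated by 0.44, 0.10, 0.41 and 0.17 within sorts 1 to 4. The members, lists and tests were chosen with earlier results of these data known. Genes named outside the 10 are up to 4 called genes per list with the largest change and the 3 most like Mef2 and sns; 3 list genes were matched through a later annotation. Every value column was assigned to a library, a group or a comparison. The authors' mean and SD columns and the Cuffdiff columns of the isoform table do not enter the results given here.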

Additional observations from a re-analysis of the deposited data

Results flagged for a closer look

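Within a group of 4 libraries, 11 of 88 sets of values had a library far from the other 3, where chance alone marks about 5% of such sets. The sets are not independent, since lmd and lmd-RB hold the same values, and ratios and shares derive from values also counted. The 11 can therefore not be weighed against that 5% as separate events. twi stood at 10.9 FPKM in all-cell library 4, while the other all-cell libraries held 5.91 to 6.72 FPKM. lmd, and its only isoform lmd-RB, stood at 28.8 FPKM in all-cell library 3, against 53.7 to 58.6 FPKM. The log2 ratio of lmd to Mef2 was -2.02 in the same library, against -0.88 to -0.69, and rols-RD stood at 3.80 FPKM there, where the others had 5.83 to 6.06 FPKM. blow stood at 40.0 FPKM in all-cell library 2, against 30.7 to 31.0 FPKM. Among GFP-positive libraries, Mef2-RA stood at 13.8 FPKM in library 3, against 1.62 to 3.45 FPKM, and Mef2-RD at 11.4 FPKM in library 4, against 3.30 to 3.99 FPKM. sns-RB stood at 0.425 FPKM in GFP-positive library 3 and was listed at 0 in the other 3, with a share of sns-RA of 98.2% there against 100%. nau-RA stood at 1.03 FPKM in GFP-positive library 1, against 0.00242 FPKM or less in the others, where nau-RB held 0.502 to 0.791 FPKM. The division between these isoforms also changed among all-cell libraries 1 to 4, with nau-RA at 3.35, 9.99e-04, 1.85 and 3.67 FPKM. nau-RB stood at 2.08 FPKM in all-cell library 2 and at 0.00239 FPKM or less in the other all-cell libraries.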

How the results depend on the processing

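The falls of lmd, sns, twi, Mef2 and blow kept their direction and call under every alternative in which they were tested, and a paired fit that took sort as a replicate block changed no call of the 10 genes (7 lower, 0 higher, log2 fold change of Mef2 -2.06 as without it; genes lower 4884, higher 1442). Other calls depended on scaling. The fall of mbc was not called with TMM-like scaling (-0.084) or upper quartile scaling (-0.31), and that of nau with TMM-like scaling (-0.67) or quantile normalization (-0.50). hbs and rols were called higher with TMM-like (0.75 and 0.70), quantile (0.46 and 0.67) and upper quartile scaling (0.53 and 0.49), so that 2 genes were higher under each, and stood below 0 without a call with ERCC subgroup B (-0.82 and -0.78) and with the ERCC sum (-0.71 and -0.67). kirre turned positive without a call with TMM-like, quantile and upper quartile scaling (0.42, 0.44 and 0.23). Of the isoforms 1, rols-RE, was called higher with TMM-like scaling (1.00) and with quantile normalization (1.02). The shares of all isoforms called higher under these scalings were not worked out. Over all genes 2058 were lower and 2299 higher with TMM-like scaling, 2517 and 2063 with quantile normalization, 7096 and 347 with ERCC subgroup B, and 309 higher with the ERCC sum. The cause was not tested. The log2 ratio of twi to Mef2 was 0.76 with a pseudocount of 5.

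Leaving out a library or sort gave log2 fold changes of -0.18 to 0.033 for kirre and -1.12 to -0.87 for nau, 6 to 7 genes and 8 to 10 isoforms called lower, and a difference in the share of hbs-RA of -8.90 to 0.97 percentage points, of mbc-RA of -23.8 to -6.60, of blow-RA of -13.5 to -5.11, of rols-RD of -9.44 to -1.03 and of kirre-RC of -26.5 to -4.98. The paired exact test of 4 sorts cannot go below p = 0.125. Depth limits twi and nau, which rest on few fragments in GFP-positive cells. Summed isoform values gave 7 genes lower.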

Other observations

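Lists of other cell types, from mesoderm and ectoderm, were examined beside the muscle genes. Of 8 cardiac and visceral mesoderm genes 5 fell and 0 rose, among them Hand (-1.29), mid (-1.17), jeb (-1.07) and bin (-0.85), with limma adjusted p-values of 0.0401, 4.1e-04, 0.0064 and 0.0125, against 38.7% lower over all genes. With TMM-like scaling 1 fell and 1 rose, against 18.8% and 21% of all genes. They were mid (-0.65) and Alk (0.71, named after its values were seen), with limma adjusted p-values of 0.0279 and 0.0326. Of 4 hemocyte genes tested 2 fell, gcm (-2.56, limma adjusted p = 4.4e-05) and srp (-0.99, limma adjusted p = 0.0033), where 38.7% of all genes tested were lower, while Pxn and crq, named after their values were seen, stood at -0.15 and -0.01 without a call. With TMM-like scaling gcm alone of the 4 was lower, where 18.8% of all genes were. Hml and eater were not tested, at 0.247 and 0.961 FPKM in GFP-positive cells and 1.87 and 0.391 FPKM in all cells. In the all-cell libraries of sorts 1 to 4 gcm stood at 29.6, 46.1, 54.2 and 37.5 FPKM. The neuron and glia sum had the same order there, at 592, 1042, 1186 and 717 FPKM, and its part in the fall of gcm was not tested. Of 3 nephrocyte genes tested, pyd, which encodes a junction protein also present in epithelia, rose by 0.39 (limma adjusted p = 0.0143, -0.66 with ERCC subgroup B). None fell, where 11.6% of all genes were higher and 38.7% lower. The others, CG32702 (Cubn) and Mec2, named after their values were seen, stood at -0.59 and -0.66 without a call (limma adjusted p = 0.0750 and 0.0947). With ERCC subgroup B both were called lower, at -1.38 and -1.53, as were 64.8% of all genes. Bteb2, the nephrocyte gene also called Klf15, was listed at 0 in all 4 GFP-positive libraries and in 2 of the 4 all-cell libraries, with 0.864 and 0.414 FPKM in the other 2, and was not tested. In the neuron and glia list fne, nerfin-1, scrt and repo fell the most, by 2.78 to 2.53 log2 units (limma adjusted p at most 5.3e-04). Of the epidermis list y, dyl, mey and sha rose the most, by 4.31 to 3.54 log2 units (limma adjusted p at most 3.6e-05).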
